A study of Mus musculus with 4 samples.

Results

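The mevalonate arm of sterol synthesis is the route from acetyl-CoA to farnesyl diphosphate and geranylgeranyl diphosphate. It was represented by 8 genes, named by their place in the route, Acat2, Hmgcs1, Mvk, Pmvk, Mvd, Idi1, Fdps and Ggps1. All 8 were found by symbol among the 53465 genes of the count files and passed the filter on low counts, as did 15766 genes in all. Expression was measured by RNA-Seq in primary (1°) mouse oligodendroglial cells (OGCs), the oligodendrocyte lineage cells of the forebrain, after 3 days of differentiation in culture. The ctrl cells carried the Zfp276 flox/flox allele without Cre, and the Zfp276cko cells carried the same allele together with the Sox10::Cre transgene. Per the study's methods, a Rosa26 stopflox tdTomato allele, whose red fluorescent reporter is switched on by Cre, was also crossed into mice for these cultures to identify Zfp276cko newborns. There were 2 libraries per genotype, each a preparation pooled from 3 mice aged between 2 and 4 days. Ctrl replicate 1 held 21311469 counted reads and ctrl replicate 2 held 21068322, and the Zfp276cko replicates held 25265366 and 26599809. Cre is driven by Sox10 regulatory sequences and therefore acts in the oligodendroglial lineage. As no group carried Cre without the floxed allele, presence of Cre, expression of the reporter and loss of Zfp276 cannot be told apart.

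In this arm, acetyl-CoA units are joined to HMG-CoA, from which mevalonate is made, and mevalonate is phosphorylated and decarboxylated to the isoprenoid unit isopentenyl diphosphate. Condensation of these units yields farnesyl diphosphate, the substrate of squalene and thus of cholesterol, and geranylgeranyl diphosphate, which is attached to small GTPases. Oligodendrocytes need much cholesterol for myelin membrane and make much of it themselves. Transcription of the enzymes is under control of SREBP2, a membrane-bound transcription factor that is released when sterols are low.

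The libraries were checked before the enzymes were compared. Zfp276, the deleted gene, had 1648 and 2230 normalized counts in ctrl and 490 and 503 in Zfp276cko libraries, so that 25.6% of the ctrl mean remained. Normalized counts are counts scaled to a common effective library size. Sox10, a marker of the whole lineage, had 18135 and 20744 in ctrl and 17805 and 18611 in Zfp276cko libraries. The myelin gene Mbp, which marks the labelled cell type, had 118071 and 177958 in ctrl and 87161 and 89976 in Zfp276cko libraries. Not every gene of oligodendrocytes was abundant, and Aspa had 58.2 and 88.9 in ctrl and 96.8 and 109 in Zfp276cko libraries. The ctrl replicates stood apart from each other, with a biological coefficient of variation (the relative spread beyond counting error) of 0.357 in ctrl and 0.0480 in Zfp276cko cells. Ctrl replicate 1 had the highest level of 7 of the 8 enzymes, and results are therefore also given without it.

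For 7 of the 8 genes the libraries of Zfp276cko cells were both lower than either ctrl library, and Ggps1 was the exception. The median log2 fold change of the 8 genes was −1.40, compared with −0.00125 over all tested genes. The Zfp276cko mean of the 7 genes lay between 26.0% of ctrl for Idi1 and 62.3% for Pmvk, whereas Ggps1 had 103%. To be called, a gene had to reach an adjusted p of 0.05, a log2 fold change of 0.6 in either direction and 20 normalized counts on average. By edgeR's quasi-likelihood test 0 of the 8 genes were called, as were 0% of all 15766 tested genes in either direction. With the unadjusted p at the same thresholds, 7 of 8 were lower, compared with 3.02% of all tested genes, and 0 of 8 were higher, compared with 5.11%. DESeq2, the tool of the study's methods, called 7 of 8 lower and 0 higher, compared with 2.21% and 2.92% of the genes it tested. The genotypes did not overlap for 50.5% of all tested genes, with Zfp276cko the lower for 23.7% and the higher for 26.8%. Without ctrl replicate 1 the median of the 8 genes was −0.896, and without ctrl replicate 2 it was −1.83. As the cultures were sequenced in bulk, fewer cells of a type and less RNA per cell cannot be told apart.

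**Figure D1:**
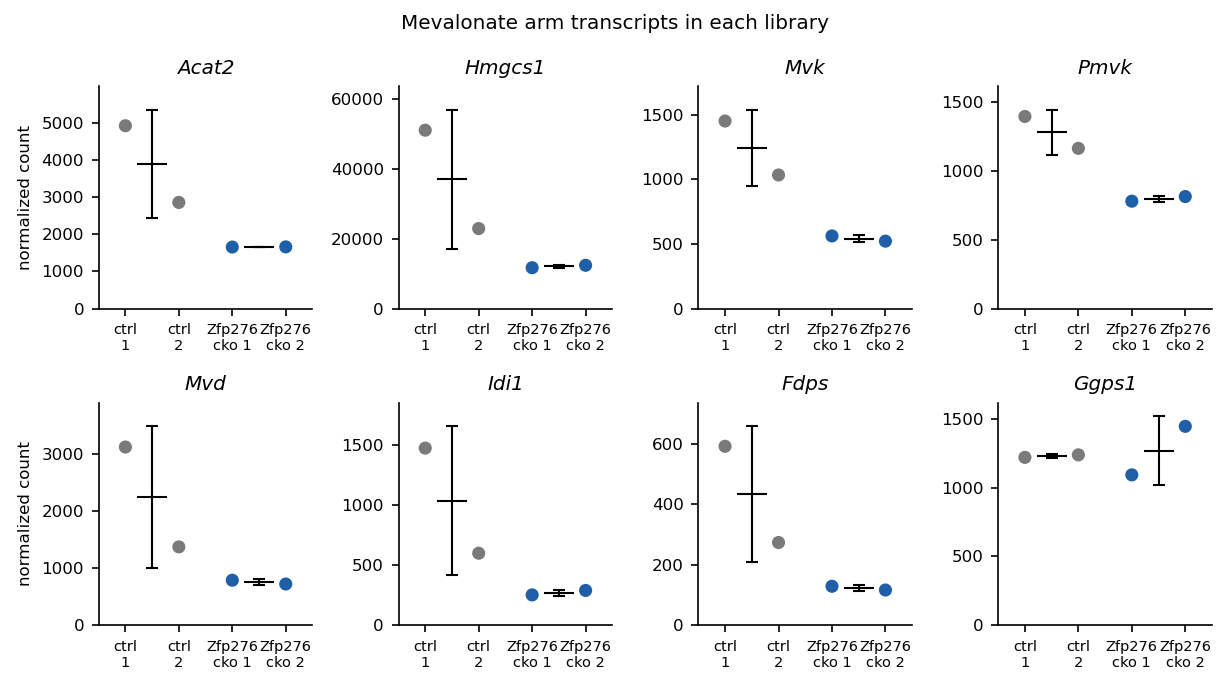
Normalized counts (linear axes that start at 0) of the 8 mevalonate arm genes in each library, with grey points for ctrl and blue points for Zfp276cko replicates 1 and 2. Black bars give mean ± SD (n = 2 per genotype). In every panel but that of Ggps1 both blue points lie below both grey points, and the ctrl points are far apart for Hmgcs1, Mvd, Idi1 and Fdps.

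Promoter sequences are shown for 3 genes, Hmgcs1 as the most abundant member, Mvk as one of a divergent gene pair and Ggps1 as the gene that did not move with the others. They are the 250 bases before the RefSeq start site in GRCm38 (mm10), 5′ to 3′ on the strand of the gene. Capitals mark the box CCAAT, which the factor NF-Y binds, in either orientation, and the motif TCACNCCAC, the degenerate core of a sterol regulatory element bound by SREBPs.
Hmgcs1, chr13:119690101-119690350, plus strand: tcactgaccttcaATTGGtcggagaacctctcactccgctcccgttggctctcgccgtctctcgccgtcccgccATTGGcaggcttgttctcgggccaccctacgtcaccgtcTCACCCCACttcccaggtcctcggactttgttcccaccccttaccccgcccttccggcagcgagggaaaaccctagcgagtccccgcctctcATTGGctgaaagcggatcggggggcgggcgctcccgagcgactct
Mvk, chr5:114444019-114444268, plus strand: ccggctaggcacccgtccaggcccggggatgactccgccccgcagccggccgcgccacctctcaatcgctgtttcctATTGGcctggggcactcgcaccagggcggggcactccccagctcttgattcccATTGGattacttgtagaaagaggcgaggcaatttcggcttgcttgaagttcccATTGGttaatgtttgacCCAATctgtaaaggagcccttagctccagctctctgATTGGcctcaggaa
Ggps1, chr13:14063489-14063738, minus strand: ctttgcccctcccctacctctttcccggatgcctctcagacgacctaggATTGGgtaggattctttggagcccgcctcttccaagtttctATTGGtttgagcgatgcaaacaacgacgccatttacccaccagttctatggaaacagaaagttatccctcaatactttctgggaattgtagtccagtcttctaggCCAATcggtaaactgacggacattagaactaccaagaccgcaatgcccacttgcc

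RefSeq windows were matched for 7 of the 8 genes, all but Fdps, with 1 window each but 2 for Pmvk. CCAAT was found on either strand in 6 of these 8 windows, which left out that of Acat2 and the second one of Pmvk, compared with 33.8% of all 32851 promoter windows of this length. Hmgcs1 held 3 such boxes, Mvk 5 and Ggps1 3. TCACNCCAC was found in 1 of the 8 windows, that of Hmgcs1, starting 137 bases before the start site, and in 1.05% of all windows. The sterol regulatory element of the LDL receptor gene, which contains a version of that core, was in 0 of the 8 and in 0.0731% of all windows, and the E-box CACGTG in 0 of the 8 and in 6.02%. A match to these letters is a description of the sequence and was not tested for binding.

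The first steps are catalysed by Acat2, the cytosolic thiolase that joins 2 acetyl-CoA units, and Hmgcs1, the cytosolic HMG-CoA synthase. Acat2 lies on chromosome 17 (12942890 to 12960747, minus strand of mm10) and Hmgcs1 on chromosome 13 (119690379 to 119708260, plus strand). Acat2 had 4921 and 2856 normalized counts in ctrl and 1655 and 1659 in Zfp276cko libraries, a log2 fold change of −1.23 (standard error, SE, 0.29). Hmgcs1 had 50962 and 22855 in ctrl and 11665 and 12354 in Zfp276cko libraries. Its mean was 36908 ± 19875 in ctrl and 12010 ± 487 in Zfp276cko cells (SD, n = 2). This is a log2 fold change of −1.62 (SE 0.42), for which edgeR gave an adjusted p of 0.218. For both genes the Zfp276cko libraries were nearly equal and the ctrl libraries were not. In ctrl replicate 1, Hmgcs1 exceeded ctrl replicate 2 by a factor of 2.23, and Acat2 by a factor of 1.72. Compared with ctrl replicate 2 alone, the Zfp276cko mean was 0.525-fold for Hmgcs1 and 0.580-fold for Acat2.

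Mvk (mevalonate kinase) and Pmvk (phosphomevalonate kinase) add the phosphate groups, and Mvd (mevalonate diphosphate decarboxylase) forms isopentenyl diphosphate. Mvk (chromosome 5, 114444269 to 114460591, plus strand) had 1452 and 1034 normalized counts in ctrl and 562 and 522 in Zfp276cko libraries. With a log2 fold change of −1.20 (SE 0.20), it had the smallest adjusted p of the 8 genes, 0.140. Pmvk (chromosome 3, 89454541 to 89469013, plus strand) had 1393 and 1161 in ctrl and 778 and 812 in Zfp276cko libraries. Its log2 fold change of −0.68 (SE 0.13, adjusted p = 0.162) was the smallest of the 7 genes. It was −0.55 without ctrl replicate 1 and thus no longer past the threshold of 0.6. Mvd (chromosome 8, 122433601 to 122443422, minus strand) had 3114 and 1367 in ctrl and 784 and 717 in Zfp276cko libraries. Its log2 fold change of −1.58 became −0.865 without ctrl replicate 1 and −2.07 without ctrl replicate 2. Mvk and Pmvk were 1.40-fold and 1.20-fold higher in ctrl replicate 1 than in ctrl replicate 2, compared with 2.28-fold for Mvd. The kinases therefore varied less between the ctrl libraries than the decarboxylase.

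Idi1 and Fdps follow on this step. Idi1, the isomerase that makes dimethylallyl diphosphate, lies on chromosome 13 (8885501 to 8892451, plus strand). It had 1472 and 598 normalized counts in ctrl and 251 and 288 in Zfp276cko libraries. Its log2 fold change of −1.94 (SE 0.48, adjusted p = 0.204) was the lowest of the 8 genes. Fdps, the farnesyl diphosphate synthase, lies on chromosome 3 (89093588 to 89101959, minus strand). It had 592 and 273 in ctrl and 128 and 116 in Zfp276cko libraries, a log2 fold change of −1.82. Ctrl replicate 1 exceeded ctrl replicate 2 by a factor of 2.46 for Idi1 and 2.17 for Fdps, and both Zfp276cko libraries were still below ctrl replicate 2. When ctrl replicate 1 was left out, Idi1 had a log2 fold change of −1.15 and Fdps of −1.16.

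Ggps1 catalyses the branch from farnesyl to geranylgeranyl diphosphate, away from cholesterol. It lies on chromosome 13 (14050659 to 14063488, minus strand) and had 1219 and 1238 normalized counts in ctrl and 1092 and 1445 in Zfp276cko libraries. The mean was 1229 ± 13.1 in ctrl and 1269 ± 250 in Zfp276cko cells (SD, n = 2). The groups overlapped, with one Zfp276cko library below and one above both ctrl libraries. Its log2 fold change was 0.05 (SE 0.16, adjusted p = 0.918), and −0.17 without Zfp276cko replicate 2, so that its direction rested on this library. In contrast to the other 7 genes, Ggps1 was nearly equal in the ctrl libraries and apart in the Zfp276cko libraries. The log2 ratio of each of the other 7 genes to Ggps1 within a library was lower in each Zfp276cko library than in either ctrl library. For Fdps it was −1.04 and −2.18 in ctrl and −3.09 and −3.64 in Zfp276cko libraries. Each of these 7 comparisons had p = 0.333 in a two-sided exact permutation test, also after adjustment over the 7. This is the smallest p that 2 libraries against 2 allow, so the test cannot decide. The 7 genes were already known to lie below both ctrl libraries, and Ggps1 to overlap. All 7 ratios also share Ggps1, so they are a description and no separate support. The share of all tested genes with such a ratio was not determined.

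**Figure D2:**
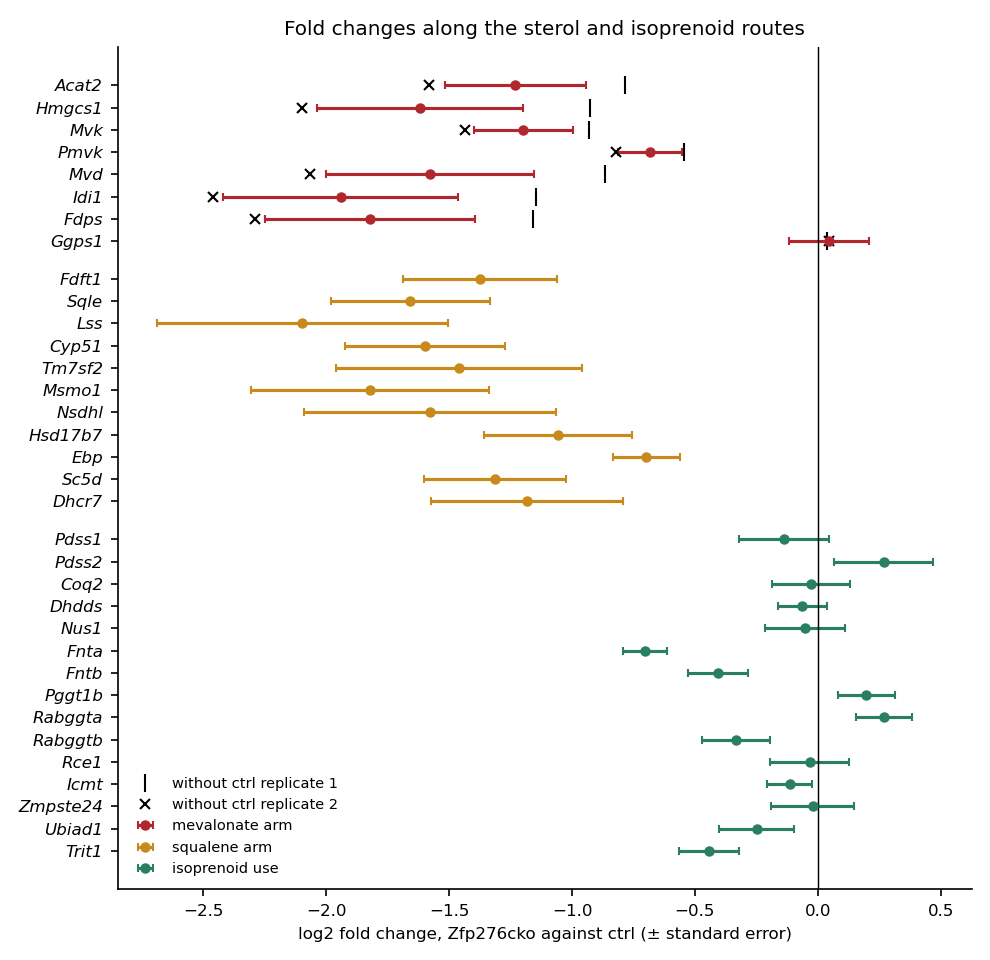
Log2 fold change of Zfp276cko against ctrl (horizontal axis, ± standard error from edgeR, 2 libraries per genotype) for the mevalonate arm (red), the squalene arm (ochre) and genes of isoprenoid use (green). Black bars and crosses give the mevalonate arm without ctrl replicate 1 and without ctrl replicate 2. All red points but Ggps1 and all ochre points lie below −0.6, whereas the green points lie between −0.70 and 0.27.

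Per length, Hmgcs1 was the most abundant of the 8 transcripts and Acat2 the second in each library. Levels were expressed as normalized counts per kb of merged exons of the gene. Hmgcs1 had 11093 and 4975 in ctrl and 2539 and 2689 in Zfp276cko libraries on this scale, and Acat2 had 1934, 1123, 651 and 652. Mvd followed in ctrl with 1675 and 735 and Pmvk with 813 and 678, and in Zfp276cko libraries Pmvk (454 and 474) preceded Mvd (422 and 386). By their means in ctrl the order went on with Mvk, Idi1, Ggps1 and Fdps. In this order the ctrl libraries of neighbours overlapped, except for Hmgcs1 and Acat2, Pmvk and Mvk, and Ggps1 and Fdps. Per kb of merged exons, the order in Zfp276cko cells was Hmgcs1, Acat2, Pmvk, Mvd, Ggps1, Mvk, Idi1 and Fdps, and no neighbours overlapped. Ggps1, with 258 and 262 in ctrl and 231 and 306 in Zfp276cko libraries, moved from the seventh and sixth place in ctrl replicates 1 and 2 to the fifth place in both Zfp276cko libraries. Fdps had the lowest level, 141 and 65.0 in ctrl and 30.5 and 27.6 in Zfp276cko libraries. With the length of the principal transcript instead, Ggps1 was in the eighth and the sixth place in ctrl and in the sixth and the fifth place in Zfp276cko libraries. On that scale Fdps had 429 and 198 in ctrl and was the lowest only in Zfp276cko replicate 2. In Zfp276cko libraries Mvk (339 and 314) then overlapped with Ggps1 (257 and 341), and Idi1 (82.8 and 95.1) with Fdps (93.0 and 83.9). In ctrl replicate 2 Pmvk (973) then preceded Mvd (779).

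**Figure D3:**
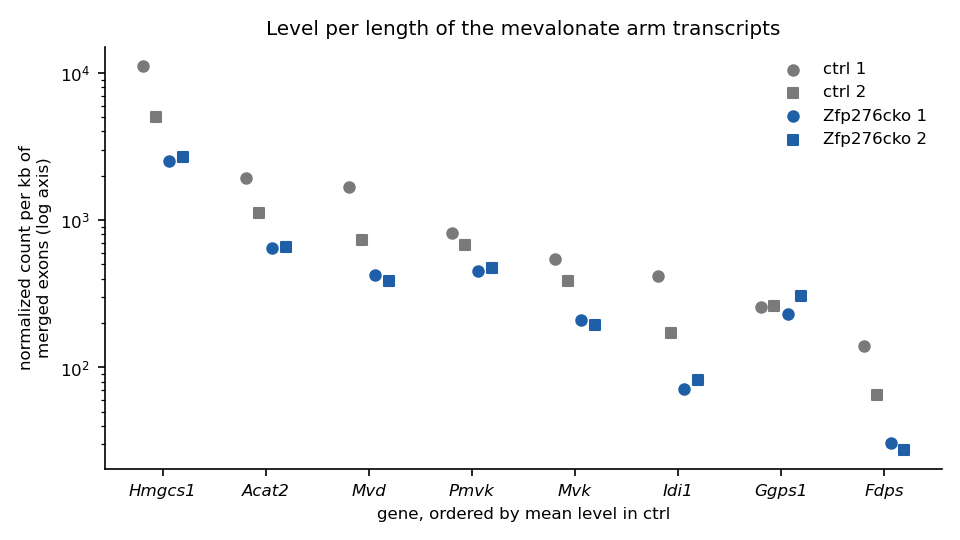
Normalized counts per kb of merged exons (log axis) for the 8 genes, ordered by their mean in ctrl, with circles for replicate 1 and squares for replicate 2 of ctrl (grey) and Zfp276cko (blue). Hmgcs1 and Acat2 stay in first and second place in all 4 libraries, while Ggps1 keeps its level as its neighbours lie lower in the blue libraries.

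Together the 8 genes held 65126 and 31382 normalized counts in ctrl and 16915 and 17912 in Zfp276cko libraries, or 0.257%, 0.132%, 0.0740% and 0.0784% of all counts. Hmgcs1 alone took 78.3% and 72.8% of this sum in ctrl and 69.0% in both Zfp276cko libraries. The share of Ggps1 was 1.87% and 3.94% in ctrl and 6.46% and 8.07% in Zfp276cko libraries. The composition of the arm therefore differed between the ctrl libraries as well as between the genotypes. A gene that keeps its level takes a larger share of a smaller sum.

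The difference between the ctrl libraries followed nearly the same order of genes as the difference between the genotypes. Ctrl replicate 1 exceeded ctrl replicate 2 most for Idi1, Mvd, Hmgcs1 and Fdps, which also had the 4 lowest fold changes, and less for Pmvk. Ggps1 was slightly lower in ctrl replicate 1, with a ratio of 0.985. Pmvk and Ggps1 had the 2 highest fold changes. In Zfp276cko cells the ratio of replicate 1 to replicate 2 lay between 0.756 for Ggps1 and 1.11 for Fdps. Both measures use the ctrl libraries and are given as a description.

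**Figure D4:**
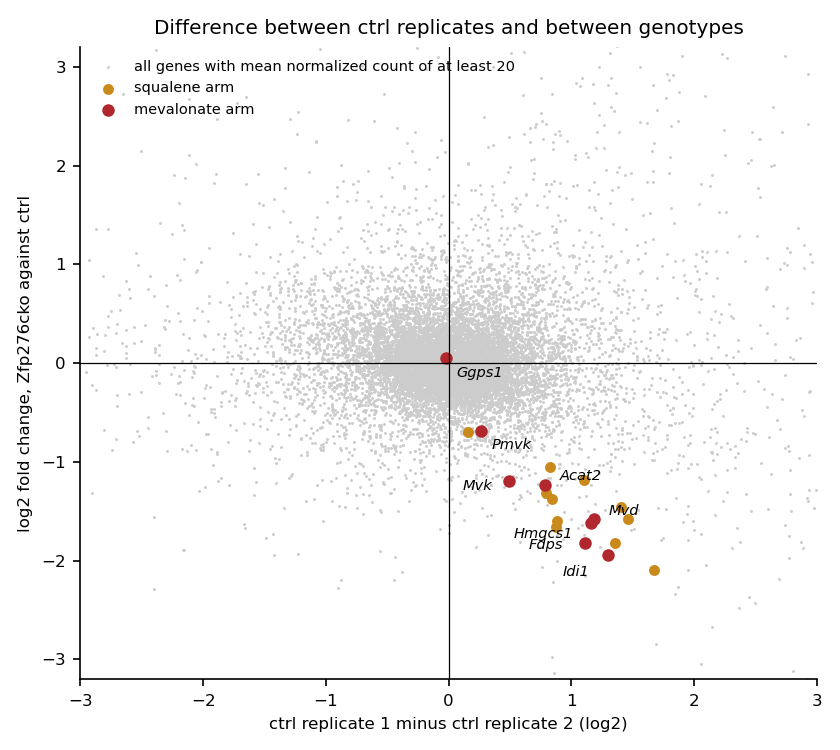
Log2 difference between ctrl replicate 1 and ctrl replicate 2 (horizontal axis) and log2 fold change of Zfp276cko against ctrl (vertical axis) for the 14045 genes that had 20 or more normalized counts on average (grey), with 279 genes outside the axes. Most genes of the mevalonate arm (red) and the squalene arm (ochre) lie at the lower right, and Ggps1 lies near the origin.

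Some reads of these genes could be shared with other genes. Of all windows of 101 bases, the read length, in the principal transcript of Acat2, 35.1% also occurred in its paralog Acat3 or in Tcp1. For Idi1 this share was 27.6%, of which most came from Gm13502, and for Hmgcs1 10.8%, from the antisense gene Gm48342. As the strand setting of the counting is not known, reads of Hmgcs1 and Gm48342 cannot be told apart. For Mvk, Pmvk and Mvd it was 0%, and for Ggps1 5.21%. The paralogs Acat3 and Idi2 themselves had few reads, with at most 26 counts in a library for Acat3 and 0 for Idi2. Tcp1, in contrast, had between 6888 and 7481 counts in a library, more than Acat2, and shared 8.74% of the windows of Acat2. Fdps overlaps Gm43738 on the same strand, which covers 81.3% of the bases of its principal transcript and was listed at 0 counts in all 4 libraries. Whether reads in these exons were counted for Fdps was not tested, so its level is uncertain, also relative to the other enzymes. The fold changes of Mvk, Pmvk and Mvd do not have this limit.

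Mvk and Ggps1 each start next to a gene on the opposite strand. The start of Mmab, which encodes an enzyme of vitamin B12 metabolism, is 209 bp from that of Mvk, and their promoter windows share 241 bases, including all 5 CCAAT boxes shown above. Mmab had 890 and 602 normalized counts in ctrl and 631 and 557 in Zfp276cko libraries, a log2 fold change of −0.33 (SE 0.23, adjusted p = 0.551), and the groups overlapped. The log2 ratio of Mvk to Mmab was 0.71 and 0.78 in ctrl and −0.17 and −0.09 in Zfp276cko libraries. This ratio differed between the genotypes by more than its spread within either of them (two-sided exact permutation p = 0.333, the smallest possible). Arid4b, a chromatin regulator that starts 256 bp from Ggps1, had a log2 fold change of −0.17 (SE 0.13), and the ratio of Ggps1 to Arid4b overlapped between the genotypes (p = 0.667 in the same exact test).

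The squalene arm, which follows on the way to cholesterol, was represented by 11 genes from Fdft1 to Dhcr7. For 11 of 11 the Zfp276cko libraries were lower than either ctrl library, compared with 23.7% of all tested genes. DESeq2 called 11 of 11 lower, compared with 2.21% of the genes it tested, while edgeR called 0. The median log2 fold change was −1.46, which became −0.860 when ctrl replicate 1 was left out and −1.99 when ctrl replicate 2 was. Both arms thus depended on the ctrl library used. Lss, the lanosterol synthase, had 15282 and 4776 normalized counts in ctrl and 2394 and 2292 in Zfp276cko libraries, a log2 fold change of −2.10 (SE 0.59). Msmo1 (−1.82) and Sqle (−1.66), a demethylase and the squalene epoxidase, followed. Ebp, a sterol isomerase, was at the other end with −0.70.

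Genes of isoprenoid use outside the squalene arm were enzymes of ubiquinone, dolichol and menaquinone synthesis and of tRNA modification, the protein prenyltransferases, and Rce1, Zmpste24 and Icmt, which process prenylated proteins and use no isoprenoid themselves. Compared with both ctrl libraries, 6 of these 15 genes were lower, 3 were higher and 6 overlapped, whereas of all tested genes 23.7% were lower and 26.8% higher. Their median log2 fold change was −0.06. Leaving out ctrl replicate 1, ctrl replicate 2 or Zfp276cko replicate 1 gave −0.129, −0.201 and −0.116. DESeq2 called 1 of the 15 lower and 0 higher, compared with 2.21% and 2.92% of the genes it tested. The called gene was Fnta, the subunit common to farnesyltransferase and type I geranylgeranyl transferase. Fnta had 6136 and 6064 normalized counts in ctrl and 3795 and 3700 in Zfp276cko libraries. The log2 fold change of Fnta was −0.70 (SE 0.09), for which edgeR gave an adjusted p of 0.121. The ctrl libraries were nearly equal for Fnta, as they were for Ggps1. Trit1, which modifies tRNA, had a log2 fold change of −0.44, and Fntb, the other subunit of farnesyltransferase, of −0.41. Pdss2 of ubiquinone synthesis and the prenyltransferase subunits Pggt1b and Rabggta lay above both ctrl libraries, with values between 0.20 and 0.27. The difference between this list and the mevalonate arm was not tested.

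The supply of the arm was mixed. Acly, which makes cytosolic acetyl-CoA from citrate, had 16138 and 9909 normalized counts in ctrl and 6935 and 6579 in Zfp276cko libraries, which gave a log2 fold change of −0.95 (SE 0.26). Compared with ctrl replicate 2 alone, the Zfp276cko mean of Acly was 0.682-fold. DESeq2 called Acly lower (adjusted p = 0.0175), and edgeR did not (adjusted p = 0.237). Acss2, which makes it from acetate, had 2143 and 805 in ctrl and 925 and 871 in Zfp276cko libraries. The citrate carrier Slc25a1 had 4237 and 2315 in ctrl and 2864 and 2781 in Zfp276cko libraries. For both, the Zfp276cko libraries lay between those of ctrl. Acat1, the mitochondrial thiolase, had a log2 fold change of −0.19 and was called neither by edgeR nor by DESeq2.

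Among 7 genes that regulate SREBPs, DESeq2 called 2 lower and 0 higher, compared with 2.21% and 2.92% of the genes it tested, and edgeR called 0. Insig1, which retains SREBPs in the endoplasmic reticulum and is itself induced by them, had 3378 and 2475 normalized counts in ctrl and 1213 and 1246 in Zfp276cko libraries. The log2 fold change of Insig1 was −1.25 (SE 0.18), with an adjusted p of 0.123 in edgeR. Srebf2, which encodes SREBP2, had 8015 and 7760 in ctrl and 5219 and 5078 in Zfp276cko libraries. Srebf2 thus had a log2 fold change of −0.62 (SE 0.10) and an adjusted p of 0.134. Srebf1, which encodes SREBP1, was the one gene above both ctrl libraries, with 844 and 1515 in ctrl and 2063 and 1927 in Zfp276cko libraries. Its log2 fold change of 0.76 had an adjusted p of 0.347. The ratio of ctrl replicate 1 to ctrl replicate 2 was 0.557 for Srebf1, so that this value depended on the ctrl library used. Scap, Insig2, Mbtps1 and Mbtps2 overlapped between the genotypes.

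Other gene lists also stood apart between the genotypes or in ctrl replicate 1, in either direction. Of 10 oligodendrocyte genes, 8 lay below both ctrl libraries, compared with 23.7% of all tested genes. Aspa lay above both with a log2 fold change of 0.48, and Cldn11 overlapped with 0.01. Opalin (−3.12), Ermn (−1.14) and Mog (−0.92) had the lowest log2 fold changes. Opalin had 1504 and 215 normalized counts in ctrl and 98.6 and 98.8 in Zfp276cko libraries, so that its value rested on ctrl replicate 1, and DESeq2 did not call it. Compared with ctrl replicate 2 alone, the Zfp276cko mean was 0.459-fold for Opalin, 0.441-fold for Cnp and 0.435-fold for Mag. These were the lowest such ratios of the 10 genes, and Mag was chosen after its values were seen. Cnp had 42469 and 64535 normalized counts in ctrl, and Mag had 11060 and 18911. For Cnp and Mag, ctrl replicate 2 was thus the higher ctrl library, which enlarged the difference. Both Zfp276cko libraries exceeded ctrl replicate 2 for Aspa and Cldn11, which went the other way. The median of the list was −0.87, and the sum of the 10 genes was 210156 and 303921 normalized counts in ctrl and 153994 and 156251 in Zfp276cko libraries. Mbp was the most abundant. In contrast to the mevalonate arm, this sum was higher in ctrl replicate 2. Of 15 interferon response genes, 14 were above either ctrl library, compared with 26.8% of all tested genes, led by Rsad2 with 258 and 195 normalized counts in ctrl and 8616 and 8912 in Zfp276cko libraries. The 15 genes had sums of 11458 and 4583 in ctrl and 91659 and 89145 in Zfp276cko libraries, with Ifit3 the most abundant. Their median log2 fold change was 3.39. The 8 markers of fibroblasts and vessels summed to 8110 in ctrl replicate 1 and to 264, 385 and 350 in ctrl replicate 2 and the Zfp276cko libraries. Col1a2 was the most abundant, and Cldn5 was at 0 in all libraries. The share of mitochondrially encoded genes was 2.90% of counts in ctrl replicate 1 and 1.60%, 1.33% and 1.43% in the other libraries in the same order. The part of these genes in the result was not tested. Compared with ctrl replicate 2 alone, the Zfp276cko mean of the 7 lower enzymes was between 0.447-fold and 0.685-fold.

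The genotypes did not overlap for 2 of 10 microglial, 3 of 8 astrocyte, 1 of 7 tested neuronal and 3 of 5 precursor markers and for 5 of 8 genes of dividing cells, compared with 50.5% of all tested genes. The 10 microglial genes summed to 58087 and 40778 normalized counts in ctrl and 36372 and 38019 in Zfp276cko libraries, with Fcrls the most abundant. Compared with both ctrl libraries, 1 was lower (Fcrls) and 1 was higher. The 8 astrocyte genes summed to 35410 and 23830 in ctrl and 30296 and 28460 in Zfp276cko libraries, with Gfap the most abundant, and 1 was lower and 2 were higher than both ctrl libraries. The 8 neuronal genes summed to 1294 and 6131 in ctrl and to 4009 and 3945 in Zfp276cko libraries, with Tubb3 the most abundant, and 1 was lower. For the 5 genes of precursor cells the ctrl sums were 96695 and 75448 and the Zfp276cko sums 67439 and 67944, with Ptprz1 the most abundant, and 3 lay below both ctrl libraries. Of 8 genes of dividing cells, 5 lay above both ctrl libraries and 3 overlapped, with Mki67 the most abundant and sums of 10289, 16753, 15475 and 15808. Of these 4 cell type lists, none had a gene at 0 in every library. Their part in the level of the enzymes was not tested.

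Genes with a profile over the 4 libraries like that of the arm were found by the Euclidean distance of centred log2 values to the mean of the 8 genes. The 10 nearest outside the arm were Ppp2r3a, Sc5d, Pex5l, Kif26a, Gcat, Gpr17, Nkd1, Cdr2, Mfsd2a and Sept4, at distances from 0.0823 to 0.187. Sc5d is an enzyme of the squalene arm, and Gpr17 is a receptor of precursors that are committed to differentiation. Gpr17 had 113405 and 69766 normalized counts in ctrl and 43296 and 41092 in Zfp276cko libraries. Among the 8 genes themselves, Acat2 was closest to their mean with 0.0312 and Ggps1 the farthest with 1.37. The others lay between 0.235 for Mvk and 0.724 for Idi1, farther from the mean than the 10 genes named. The mean includes Ggps1. With 4 libraries, this likeness is a description.

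**Figure D5:**
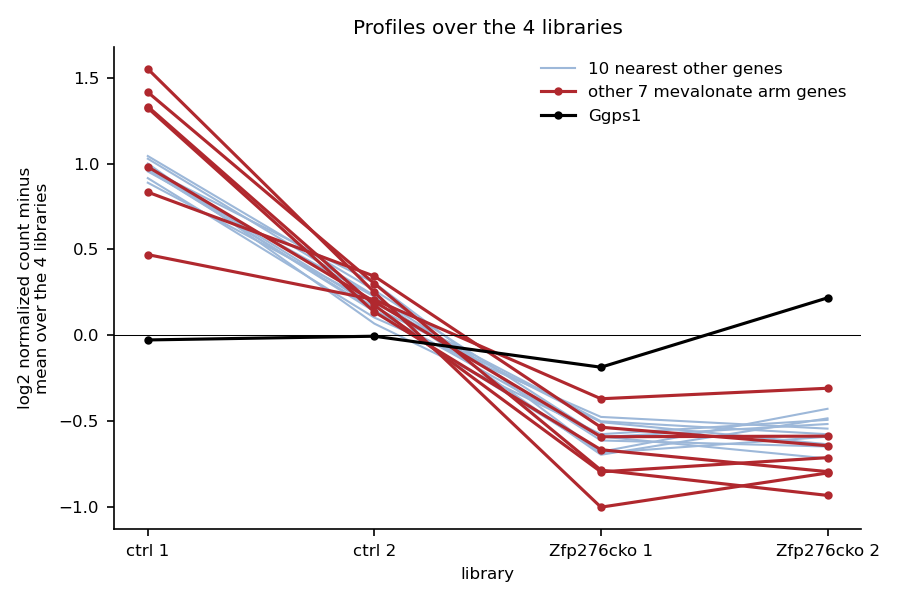
Log2 normalized counts minus the mean over the 4 libraries (vertical axis) in each library (horizontal axis, lines only join the points of a gene) for the mevalonate arm without Ggps1 (red), Ggps1 (black) and the 10 genes of the nearest profile (blue). The red lines are highest in ctrl replicate 1 and below 0 in both Zfp276cko libraries, and Ggps1 stays between −0.19 and 0.22.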

How the data were processed

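RNA-Seq libraries of 2 ctrl and 2 Zfp276cko preparations were analysed. Reads were mapped by the authors to mm10 (STAR 2.5.4a), and the authors deposited unnormalized, unfiltered counts of uniquely mapped reads per gene symbol. Their methods name HTSeq for counting, whereas the submitters' processing notes name featureCounts 1.5.1. The strand setting is not given in the sources used here.

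Genes were filtered with filterByExpr, which kept 99.9% of the counts, normalized with TMM and compared between the genotypes with edgeR 4.0.16 in R 4.3.3 (quasi-likelihood test, no covariates, two-sided, Benjamini-Hochberg adjustment over all 15766 tested genes). DESeq2 1.42.0 and limma 3.58.1 (voom) were alternatives, and the code was tested on simulated data. The simulation gave both genotypes the same small spread, so it does not show how the tests behave with the unequal spread found here. Positions, exons and transcripts came from GENCODE M21 and promoters from RefSeq (GRCm38.p6). Centred profiles used log2 of normalized counts plus 0.5. Standard errors cover these libraries only.

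The members and lists were chosen with earlier results of these data known, and are no independent support. Genes named are the 8 members, their neighbours, genes of the lists with the largest fold changes or as exceptions, and the 10 nearest profiles. Other enzymes of the route and some genes of the lists are not reported here.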

Additional observations from a re-analysis of the deposited data

How the results depend on the processing

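Limits were the number of libraries and the spread between the ctrl replicates. The 7 lower enzymes kept their direction under all 12 alternatives, and Ggps1 turned only without Zfp276cko replicate 2 (log2 fold changes from −0.168 to 0.239 over the libraries left out). With 0 genes called by edgeR, DESeq2 called 338 lower and 447 higher with 7 of the 8 enzymes among the lower, voom with quality weights per genotype called 72 and 133 with 1 enzyme (Mvk), and the unadjusted p gave 476 and 806 with 7 enzymes. When low counts were not filtered, 8 genes were called higher and 0 lower. Leaving out each library in turn, edgeR called from 0 to 1286 genes lower, from 0 to 1792 higher and from 0 to 7 enzymes lower, and the median of the 8 enzymes lay between −1.83 and −0.896. Without ctrl replicate 1 it called 952 lower and 1689 higher with 6 enzymes, as Pmvk fell short of the fold change. In these fits the remaining ctrl library is assumed to vary like the Zfp276cko pair. Chosen after the data were seen, DESeq2 called 632 lower and 1134 higher with 6 enzymes without ctrl replicate 1 (median −0.899), and 1024 and 1169 with 7 enzymes without ctrl replicate 2 (median −1.84). The replicate block left 0 genes called in either direction and gave a median of −1.32 for the 8 enzymes. The replicate numbers did not pair the libraries by the labels, and the deviations of equally numbered libraries correlated with r = −0.00503 across genes.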
